A study of Saccharomyces cerevisiae with 46 samples.

Results

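Chromosome XII of Saccharomyces cerevisiae carries the ribosomal DNA (rDNA), a tandem array of repeats that transcribe the ribosomal RNAs, and in the maps of meiotic DNA double-strand breaks (DSBs) the array appears as a gap. A stretch of 17.4 kb, positions 444335 to 461733, had no hit in any of 6 libraries. The region described is chromosome XII without the 60 kb at each end and without the block from 104 to 204 kb, which leaves 834 kb. It consists of a left end segment of 44.0 kb, a segment of 241 kb left of the gap, the gap itself (445001 to 461000 in 1-kb bins) and a segment of 533 kb right of it. Its members are hotspots, which are short intervals where breaks cluster. The mean of 4 libraries, those of rad50S hop1-loop2 and of rad50S, was smoothed with a Hann window of 201 bp, and a hotspot was a stretch of at least 25 bp above 0.2 HpM per bp. HpM is the number of hits divided by all hits of the library and scaled to 1000000. Neighbouring stretches with a gap of under 200 bp counted as a single hotspot. The rule found 209 hotspots of 3569 in the genome (260 on the whole of chromosome XII), and the same region holds 82 of the 1198 fixed 10-kb tiles of the genome. At the edge of the rule, the weakest members peaked at 0.207 and 0.213 HpM per bp, while the strongest stretches left out peaked at 0.203 and 0.202 HpM per bp for less than 25 bp. All positions refer to the SK1 genome assembly ASM205788v1. No gene annotation of that assembly was used, and each hotspot is identified by its coordinates and its distance from the gap.

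Meiotic recombination starts with DSBs made by Spo11, a topoisomerase-like protein that stays covalently bound to the 5′ ends it creates. Breaks form mainly at nucleosome-poor promoters in chromatin loops, and their number in a region depends on the axis proteins at the loop bases, among them Red1, the cohesin Rec8 and the HORMA-domain protein Hop1. The repeats of the rDNA and the sequences beside them are known as places where breaks are held back, and in budding yeast Pch2, an AAA+ ATPase that remodels Hop1 and removes it from chromosomes, acts in this protection together with Orc1, a subunit of the origin recognition complex.

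CC-seq, which enriches and sequences DNA ends covalently bound to Spo11, was performed at 6 h in meiotic cultures of diploid SK1 cells of 3 genotypes with 2 replicates each: rad50S hop1-loop2 pch2, rad50S hop1-loop2, and rad50S. All 3 carry rad50S, an allele that blocks the removal of Spo11 so that unrepaired breaks accumulate, and the rad50S strain is otherwise wild type for HOP1 and PCH2. The hop1-loop2 allele replaces the residues of loop 2 in the Hop1 chromatin-binding region that reach into nucleosomal DNA, and pch2 removes PCH2. Below, the 3 genotypes are called hop1-loop2 pch2, hop1-loop2 and rad50S cells. Genotypes follow the sample titles, since the genotype entries of the same samples name other alleles, and the strains of the study also differ in marker genes, so that effects of a marker and of the mutations cannot be told apart. A pch2 single mutant was not analysed here.

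The libraries held 3614810 and 1026669 hits in hop1-loop2 pch2, 6277735 and 7985420 in hop1-loop2, and 7730583 and 7577582 in rad50S cells. As HpM is a share of a library's own hits, the total amount of breaks is not measured, and a higher share at one place comes with a lower share elsewhere. Replicate 2 of hop1-loop2 pch2 stood apart. Of its hits, 63.2% lay in hotspots of the genome against 84.3% in replicate 1 of that genotype and 87.9% to 89.4% in the other 4 libraries. Its background, measured in 3805 1-kb bins away from hotspots, was 28.2 HpM per kb, against 6.09 HpM per kb in replicate 1, 2.71 and 2.50 HpM per kb in hop1-loop2 and 0.905 and 1.98 HpM per kb in rad50S cells. Values of cold tiles in hop1-loop2 pch2 cells are therefore given by replicate or with that background subtracted, and this library's part in the results was measured by leaving it out.

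The region held 5.40% and 5.63% of all hits in hop1-loop2 pch2, 4.80% and 4.74% in hop1-loop2 and 4.93% and 5.05% in rad50S cells. The segment right of the gap had 74.8 and 76.4 HpM per kb in hop1-loop2 pch2, 72.5 and 71.3 HpM per kb in hop1-loop2 and 68.8 and 70.1 HpM per kb in rad50S cells. To the left of the gap the 3 genotypes separated further, with 52.1 and 56.1 HpM per kb in hop1-loop2 pch2, 33.9 and 33.5 HpM per kb in hop1-loop2 and 42.2 and 40.4 HpM per kb in rad50S cells. With the background of each library subtracted, hop1-loop2 pch2 was below rad50S cells on both sides. The means left of the gap were then 36.9 (hop1-loop2 pch2), 31.1 (hop1-loop2) and 39.8 (rad50S) HpM per kb. Right of the gap they were 58.4, 69.3 and 68.0 HpM per kb in that order. Over the region without the gap they were 50.2, 55.6 and 59.6 HpM per kb. Hotspots were 27.8 per 100 kb right of the gap (148 hotspots) and 21.6 per 100 kb left of it (52 hotspots), with 9 in the left end segment. The gap itself had 0 hits in every library, which allows up to 0.830 and 2.92 HpM in hop1-loop2 pch2, 0.478 and 0.376 HpM in hop1-loop2 and 0.388 and 0.396 HpM in rad50S cells for 3 hits each, a limit that covers counting error only. How reads from repeated sequence were placed is not given in the sources used here, so the absence of hits does not measure breaks inside the array.

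**Figure D1:**
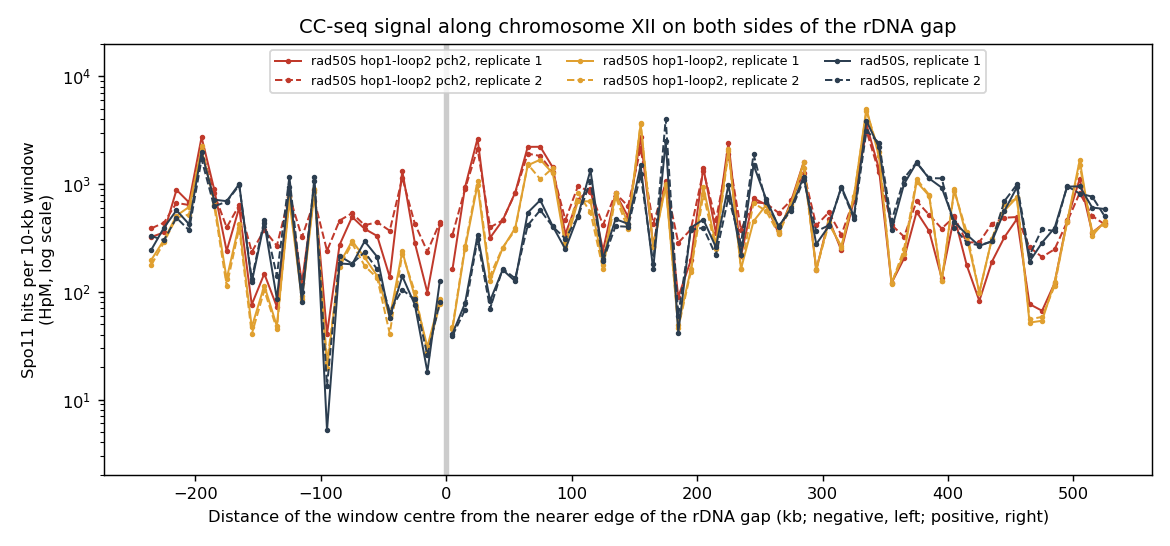
Hits per 10-kb window (HpM, log scale) against the distance of the window's centre from the nearer edge of the rDNA gap (kb), with 1 line per library: solid for replicate 1, dashed for replicate 2. From 0 to 90 kb right of the gap (grey bar) the 3 genotypes lie in steps, with hop1-loop2 pch2 on top and rad50S lowest in most windows. In the 5 windows within 50 kb left of the gap the hop1-loop2 pch2 lines lie above the other 2 genotypes.

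In rad50S cells both sides of the gap were cold, and the right side warmed in each mutant. The 50 kb right of the gap had 90.5 and 84.5 HpM per kb in hop1-loop2 pch2, 33.3 and 35.7 HpM per kb in hop1-loop2 and 13.9 and 13.0 HpM per kb in rad50S cells. No 2 genotypes overlapped there. The means were 6.51-fold (hop1-loop2 pch2 over rad50S), 2.57-fold (hop1-loop2 over rad50S) and 2.53-fold (hop1-loop2 pch2 over hop1-loop2) apart, and 5.86-fold, 2.66-fold and 2.20-fold apart after the background of each library was subtracted. In the kept region outside both flanks, by contrast, the libraries had 65.7 and 68.8 HpM per kb in hop1-loop2 pch2, 63.8 and 62.8 HpM per kb in hop1-loop2 and 67.1 and 69.0 HpM per kb in rad50S cells. Background subtraction left means of 50.1, 60.7 and 66.6 HpM per kb there, in that order of genotypes. The ratios were then 0.752 (hop1-loop2 pch2 over rad50S), 0.911 (hop1-loop2 over rad50S) and 0.826 (hop1-loop2 pch2 over hop1-loop2). The right 100 kb took 21.4% and 18.8% of the region's hits in hop1-loop2 pch2, 14.1% and 13.7% in hop1-loop2, and 5.53% and 4.91% in rad50S cells.

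On the left the order of the genotypes was the same, but hop1-loop2 cells stayed close to rad50S cells. The 50 kb left of the gap had 45.4 and 52.4 HpM per kb in hop1-loop2 pch2, 10.1 and 9.42 HpM per kb in hop1-loop2 and 8.37 and 7.22 HpM per kb in rad50S cells. The ratio was 6.27 for hop1-loop2 pch2 over rad50S, 1.25 for hop1-loop2 over rad50S and 5.02 for hop1-loop2 pch2 over hop1-loop2, and 5.00, 1.12 and 4.45 after background subtraction. On the log2 scale, relative to the change in the rest of the region, the left flank changed by 2.67 ± 0.10 and the right flank by 2.72 ± 0.12 in hop1-loop2 pch2 over rad50S cells (SD over the 2 hop1-loop2 pch2 libraries). For hop1-loop2 over rad50S the values were 0.43 ± 0.05 on the left and 1.46 ± 0.09 on the right, and for hop1-loop2 pch2 over hop1-loop2 they were 2.24 ± 0.10 on the left and 1.25 ± 0.12 on the right (SD, n = 2). A flank of 20 kb in place of 50 kb turned the left value for hop1-loop2 over rad50S to -0.11. In 10-kb windows of that flank, the ratio of hop1-loop2 over rad50S was largest at 30 to 40 kb (1.90). It was 1.18 at 20 to 30 kb and 0.802 at 40 to 50 kb, where the genotypes overlapped. The libraries of the 2 genotypes compared did not overlap in any of the 6 cases, and an exact two-sided permutation test gave p = 0.333, the smallest that 2 libraries against 2 can give. The similar flank values of hop1-loop2 pch2 over rad50S cover different profiles. With background subtracted, the left ratio was 9.87 at 30 to 40 kb, 2.93 at 0 to 10 kb, 2.80 at 20 to 30 kb and 1.73 at 40 to 50 kb. At 10 to 20 kb it was -0.539, as the mean of hop1-loop2 pch2 lay under the background. On the right it was 3.09, 12.7, 7.23 and 3.00 in the windows from 0 to 40 kb, and lower at 40 to 50 kb.

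**Figure D2:**
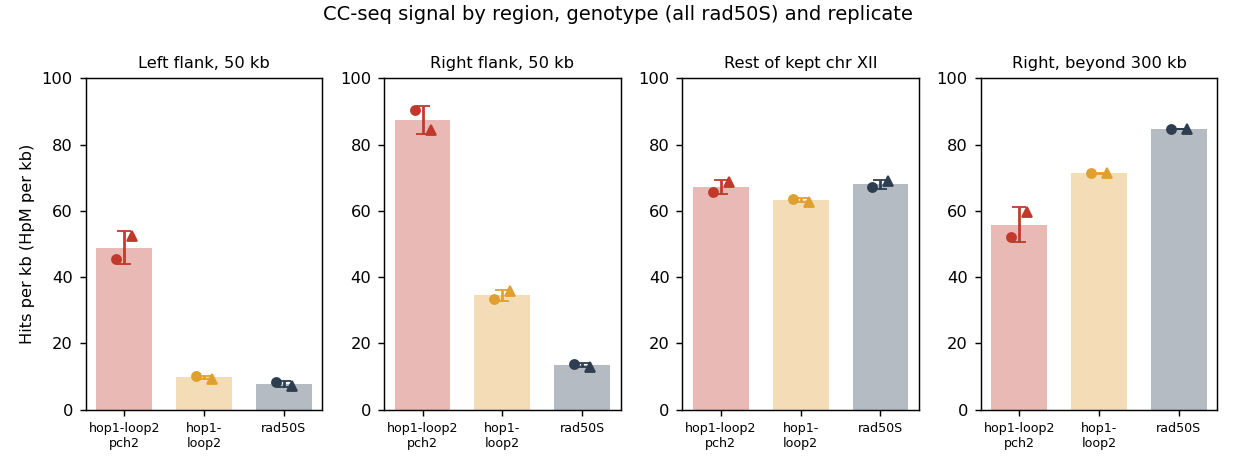
Hits per kb (HpM per kb) in 4 stretches of the region by genotype. Bars are means of 2 libraries, circles replicate 1, triangles replicate 2 and error bars the SD. The left flank is high only in hop1-loop2 pch2 cells (48.9 HpM per kb on average, against 9.74 in hop1-loop2 and 7.79 in rad50S cells), the right flank has 3 separate levels, and beyond 300 kb on the right the order is turned round.

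In 10-kb windows counted outwards from the gap, the right side was higher in both mutants in each of the first 9 windows. In hop1-loop2 cells both libraries lay above both rad50S libraries in all 9, with ratios from 1.15 to 3.54 (median 2.96). Over the genome this was so in 36.3% of 10-kb tiles. In hop1-loop2 pch2 cells both libraries lay above both rad50S libraries in the same 9 windows (39.6% of tiles over the genome), and above both hop1-loop2 libraries in 8 of 9 (49.3% over the genome). The window from 10 to 20 kb had 934 and 899 HpM in hop1-loop2 pch2, 252 and 265 HpM in hop1-loop2 and 78.1 and 67.8 HpM in rad50S cells, a ratio of 12.6 between the outer genotypes. The increase of hop1-loop2 pch2 over hop1-loop2 became smaller with distance, though not in every step. The ratio was 3.54 at 10 to 20 kb, 2.31 at 20 to 30 kb, 1.37 at 60 to 70 kb and 1.02 at 80 to 90 kb, where the 2 genotypes overlapped. That of hop1-loop2 over rad50S was still 3.31 at 80 to 90 kb, then 0.982 at 90 to 100 kb and 1.52 at 100 to 110 kb. In the window that touches the gap, 0 to 10 kb, hop1-loop2 pch2 replicate 1 had 162 HpM and replicate 2 had 339 HpM, against 45.1 and 47.0 HpM in hop1-loop2 and 40.7 and 39.1 HpM in rad50S cells, and with background subtracted hop1-loop2 was at 0.783 of rad50S there. Left of the gap, 24 windows cover 240 kb. Both hop1-loop2 libraries lay above both rad50S libraries in 7 of them and below in 11 (54.1% of tiles over the genome were below), and both hop1-loop2 pch2 libraries lay above in 15 and below in 5 (39% of tiles were below). Both hop1-loop2 pch2 libraries lay above both hop1-loop2 libraries in 21 of the 24 and below in 0 (49.3% of tiles over the genome were above and 23.5% below). The ratio of these means ran from 0.910 to 6.80 over the windows. With background subtracted it ran from -1.29 to 5.17 where it could be formed, a negative value being a level under the background. Many of these windows were cold. From 10 to 20 kb left of the gap, subtraction of the background left 37.6 HpM in replicate 1 of hop1-loop2 pch2 and -45.8 HpM in replicate 2, against 98.5 and 237 HpM before it. The limit of 100 kb used for the counts that follow was chosen after these values had been seen.

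Most hotspots within 100 kb right of the gap rose in both mutants. Changes were tested with limma on log2(HpM + 1) over all 3569 hotspots, with Benjamini-Hochberg adjustment and a limit of 0.05. In hop1-loop2 over rad50S, 22 of the 24 hotspots within 100 kb on the right rose, 1 fell and 1 did not pass, with a median log2 change of 1.60, against -0.16 for all hotspots, of which 34.2% rose and 43.2% fell. In hop1-loop2 pch2 over rad50S, 20 of the 24 rose and 1 fell (median 2.06, against -0.55 over the genome, where 21.3% rose and 43.9% fell). In hop1-loop2 pch2 over hop1-loop2, 4 rose and 0 fell (median 0.65, against -0.30 over the genome, where 2.8% rose and 11.9% fell). Without replicate 2 of hop1-loop2 pch2 the increases were 22 of 24 over rad50S and 11 of 24 over hop1-loop2, while without either hop1-loop2 library none of the 24 passed over hop1-loop2. After centring on the median change of all hotspots the increases were 23 of 24 in hop1-loop2 pch2 over rad50S, 8 of 24 in hop1-loop2 pch2 over hop1-loop2 and 22 of 24 in hop1-loop2 over rad50S. With each strand position counted once per library they were 12, 0 and 21 of 24 in the same order, and with edgeR 23, 14 and 22. Both libraries lay above both rad50S libraries at 22 of the 24 in hop1-loop2 cells (39.3% of hotspots over the genome) and at 22 in hop1-loop2 pch2 cells (27.8%). Both hop1-loop2 pch2 libraries lay above both hop1-loop2 libraries at 14 of the 24 (16%).

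The hotspot nearest to the gap on the right, at 471621 to 471761 and 10.6 kb from the edge, had 361 and 273 HpM in hop1-loop2 pch2, 83.0 and 94.4 HpM in hop1-loop2 and 31.8 and 25.6 HpM in rad50S cells. Each genotype was separate from the next, and the log2 change was 3.41 ± 0.25 (SE) for hop1-loop2 pch2 over rad50S (limma adjusted p = 6.83e-06), 1.60 ± 0.18 for hop1-loop2 over rad50S (adjusted p = 6.32e-05) and 1.81 ± 0.25 for hop1-loop2 pch2 over hop1-loop2 (adjusted p = 0.0072). The second, at 475451 to 475537, had 128 and 78.9 HpM in hop1-loop2 pch2, 45.7 and 46.1 HpM in hop1-loop2 and 9.18 and 6.60 HpM in rad50S cells, with 90.5% of its hits on the Watson strand. It too stepped down from genotype to genotype, with a step between hop1-loop2 pch2 and hop1-loop2 that missed the limit (log2 change 1.11 ± 0.33, limma adjusted p = 0.0509). The third, at 481383 to 482153, is 771 bp wide. It was near the median hotspot of the region (96.4 HpM) in rad50S cells and the 5th strongest of the region in hop1-loop2 pch2 cells. It had 1519 and 1071 HpM in hop1-loop2 pch2, 504 and 545 HpM in hop1-loop2 and 132 and 106 HpM in rad50S cells, with log2 changes of 3.42 ± 0.24 for hop1-loop2 pch2 over rad50S (limma adjusted p = 6.14e-06), 2.14 ± 0.16 for hop1-loop2 over rad50S (adjusted p = 5.85e-06) and 1.28 ± 0.24 for hop1-loop2 pch2 over hop1-loop2 (adjusted p = 0.013).

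**Figure D3:**
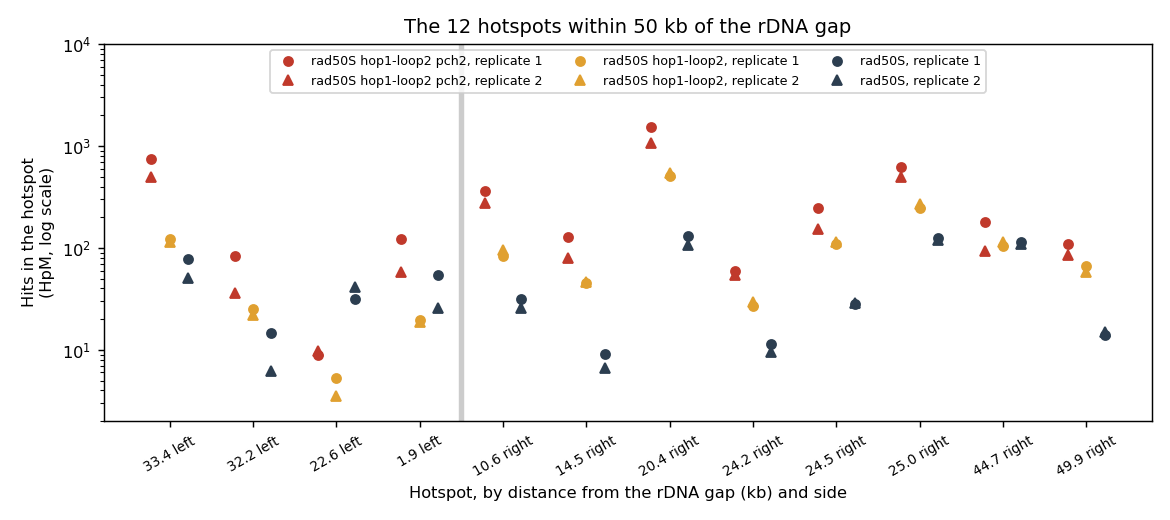
Hits (HpM, log scale) in each of the 12 hotspots within 50 kb of the rDNA gap, placed by side and distance (kb); the grey bar is the gap, colours are genotypes, circles replicate 1 and triangles replicate 2. On the right, 7 of 8 hotspots lie in steps from hop1-loop2 pch2 down to rad50S, and the one 44.7 kb away does not. On the left the hotspots at 22.6 and 1.89 kb have hop1-loop2 below rad50S.

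A cluster of 3 hotspots follows, 24.2 to 25.0 kb from the gap. The largest of them, at 485962 to 486311, had 618 and 498 HpM in hop1-loop2 pch2, 249 and 270 HpM in hop1-loop2 and 126 and 120 HpM in rad50S cells. The one at 485529 to 485670 had 246 and 154 HpM in hop1-loop2 pch2, 109 and 113 HpM in hop1-loop2 and 28.3 and 29.0 HpM in rad50S cells. The smallest, at 485155 to 485224, had 58.9 and 54.5 HpM in hop1-loop2 pch2, 26.8 and 29.2 HpM in hop1-loop2 and 11.5 and 9.63 HpM in rad50S cells. All 3 stepped down from genotype to genotype without overlap, and all 3 rose in each mutant over rad50S. The step from hop1-loop2 to hop1-loop2 pch2 passed at the largest only (log2 change 1.1 ± 0.22, limma adjusted p = 0.015).

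Not every hotspot within 100 kb on the right rose, and the exceptions are named because of their values. The one at 505651 to 505841, 44.7 kb from the gap and in the middle of the raised stretch, had 181 and 93.5 HpM in hop1-loop2 pch2, 105 and 115 HpM in hop1-loop2 and 113 and 109 HpM in rad50S cells, so that all 3 genotypes overlapped (log2 change -0.01 ± 0.15 for hop1-loop2 over rad50S, limma adjusted p = 0.939). At the far edge, the hotspot at 560223 to 560499 fell, with 73.9 and 31.2 HpM in hop1-loop2 pch2, 58.8 and 70.6 HpM in hop1-loop2 and 100 and 148 HpM in rad50S cells. Between these exceptions, from 510889 to 557514, 16 hotspots in a row rose in hop1-loop2 over rad50S, the longest such run of the region. It holds 2 of the 5 strongest hotspots of hop1-loop2 pch2 cells, at 524963 to 525580 and at 539136 to 539592. The first of these had 1486 and 1162 HpM in hop1-loop2 pch2, 974 and 1053 HpM in hop1-loop2 and 347 and 251 HpM in rad50S cells. The second had 1800 and 1278 HpM in hop1-loop2 pch2, 1358 and 654 HpM in hop1-loop2 and 570 and 385 HpM in rad50S cells. The lower hop1-loop2 pch2 value thus falls between the hop1-loop2 replicates, which lie far apart. Of the 24 hotspots the widths ran from 51 to 771 bp and the share of hits on the Watson strand from 18.1% to 90.5% (median 51.3%).

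The left flank has 4 hotspots, and they moved in different directions. The hotspot at 411389 to 411600, 33.4 kb from the gap, had 743 and 497 HpM in hop1-loop2 pch2, 121 and 115 HpM in hop1-loop2 and 77.1 and 50.1 HpM in rad50S cells. It stood apart in hop1-loop2 pch2 cells, with a log2 change over hop1-loop2 of 2.36 ± 0.29 (limma adjusted p = 0.00443), the second largest increase of the 3569 hotspots, and one of 3.27 ± 0.29 over rad50S (adjusted p = 1.47e-05), while hop1-loop2 over rad50S was 0.91 ± 0.21 (adjusted p = 0.00397). Its neighbour at 412716 to 412755 had 83.0 and 36.0 HpM in hop1-loop2 pch2, 25.3 and 21.8 HpM in hop1-loop2 and 14.6 and 6.20 HpM in rad50S cells. Closer to the gap, the hotspot at 422319 to 422359 went the other way, with 8.85 and 9.74 HpM in hop1-loop2 pch2, 5.26 and 3.51 HpM in hop1-loop2 and 31.3 and 41.2 HpM in rad50S cells. That hotspot is 41 bp wide, had 0.785% of its hits on the Watson strand and 57.3% of them at a single strand position, the most concentrated of the region. The hotspot nearest to the gap, at 443004 to 443111 and 1.89 kb from the edge, had 122 and 57.5 HpM in hop1-loop2 pch2, 19.4 and 18.9 HpM in hop1-loop2 and 53.7 and 25.9 HpM in rad50S cells. It fell in hop1-loop2 over rad50S (log2 change -0.93 ± 0.31, limma adjusted p = 0.024) and rose in hop1-loop2 pch2 over hop1-loop2 (2.07 ± 0.43, adjusted p = 0.0179).

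Within 100 kb on the left, 4 of 10 hotspots rose and 3 fell in hop1-loop2 over rad50S (34.2% and 43.2% over the genome). In hop1-loop2 pch2, 5 of the 10 rose and 1 fell over rad50S (21.3% and 43.9% over the genome), and 3 rose and 0 fell over hop1-loop2 (2.8% and 11.9%). With each strand position counted once per library, 2 of the 10 rose over rad50S and 0 over hop1-loop2. Without replicate 2 of hop1-loop2 pch2 these increases were 7 of 10 in both comparisons, and without a hop1-loop2 library 1 of 10 passed over hop1-loop2. Beyond the flank, the hotspot at 385293 to 385421, 59.6 kb from the gap, was one of the 3. It had 113 and 99.4 HpM in hop1-loop2 pch2, 47.3 and 44.6 HpM in hop1-loop2 and 65.7 and 43.3 HpM in rad50S cells.

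The same stretch was also measured in fixed tiles. The 5 tiles on the left that are nearest to the gap and wholly outside it all rose in hop1-loop2 pch2 over hop1-loop2, in a genome where 22.6% of 1197 tiles tested rose. After background subtraction only the tile at 410001 to 420000 still passed (adjusted p = 0.0173 with limma), and after centring 3 of the 5 did. Of the 5, 4 were cold. The tile at 430001 to 440000 had 137 and 319 HpM in hop1-loop2 pch2, 35.5 and 32.3 HpM in hop1-loop2 and 15.7 and 20.3 HpM in rad50S cells. Replicate 2 of hop1-loop2 pch2, the library with the high background of 28.2 HpM per kb, was the highest there. The tile at 410001 to 420000, which holds the strong left hotspot, was clear of it, with 1514 and 1213 HpM in hop1-loop2 pch2, 290 and 296 HpM in hop1-loop2 and 169 and 123 HpM in rad50S cells (log2 change 2.21 ± 0.26 over hop1-loop2, limma adjusted p = 4.91e-07). On the right, the tile at 470001 to 480000 had 929 and 874 HpM in hop1-loop2 pch2, 250 and 261 HpM in hop1-loop2 and 78.5 and 68.0 HpM in rad50S cells. Its log2 change of 3.61 ± 0.35 in hop1-loop2 pch2 over rad50S was the 12th largest of 1197 tiles (limma adjusted p = 4.52e-10). The next tile, 480001 to 490000, had 2655 and 2173 HpM in hop1-loop2 pch2, 990 and 1080 HpM in hop1-loop2 and 335 and 309 HpM in rad50S cells. Both tiles kept the 3 genotypes apart. The tile at 500001 to 510000 did so less, with 317 and 340 HpM in hop1-loop2 pch2, 172 and 183 HpM in hop1-loop2 and 142 and 144 HpM in rad50S cells, and did not pass in hop1-loop2 over rad50S (limma adjusted p = 0.0613).

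Part of the gain beside the gap in hop1-loop2 pch2 cells lay outside the hotspots. In the left flank the hits outside hotspots amounted to 26.2 and 40.4 HpM per kb in hop1-loop2 pch2, 6.63 and 6.24 HpM per kb in hop1-loop2 and 4.83 and 4.75 HpM per kb in rad50S cells. In the right flank they were 26.05 and 38.3 HpM per kb in hop1-loop2 pch2, 9.53 and 10.3 HpM per kb in hop1-loop2 and 4.59 and 4.56 HpM per kb in rad50S cells. Outside both flanks the same measure was 11.7 and 28.9 HpM per kb in hop1-loop2 pch2, 8.19 and 8.08 HpM per kb in hop1-loop2 and 8.41 and 9.64 HpM per kb in rad50S cells. In both hop1-loop2 pch2 libraries the flanks were thus above the rest of the region between hotspots, while in rad50S cells they were below it. In replicate 2 of hop1-loop2 pch2 the background alone was 28.2 HpM per kb. The hotspots were called without the hop1-loop2 pch2 libraries. Calling on all 6 libraries gave 211 hotspots in the region, 11 of which touch none of the 209. Of the 209, 24 lie within 100 kb of the gap on the right and 10 on the left, and of these 11, 9 do. The 11 were called only once the hop1-loop2 pch2 libraries were added. Their levels in that genotype are therefore no separate support for a gain. The strongest of them, at 512979 to 513081, had 71.1 and 72.1 HpM in hop1-loop2 pch2, 39.2 and 29.7 HpM in hop1-loop2 and 6.47 and 7.26 HpM in rad50S cells.

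**Figure D4:**
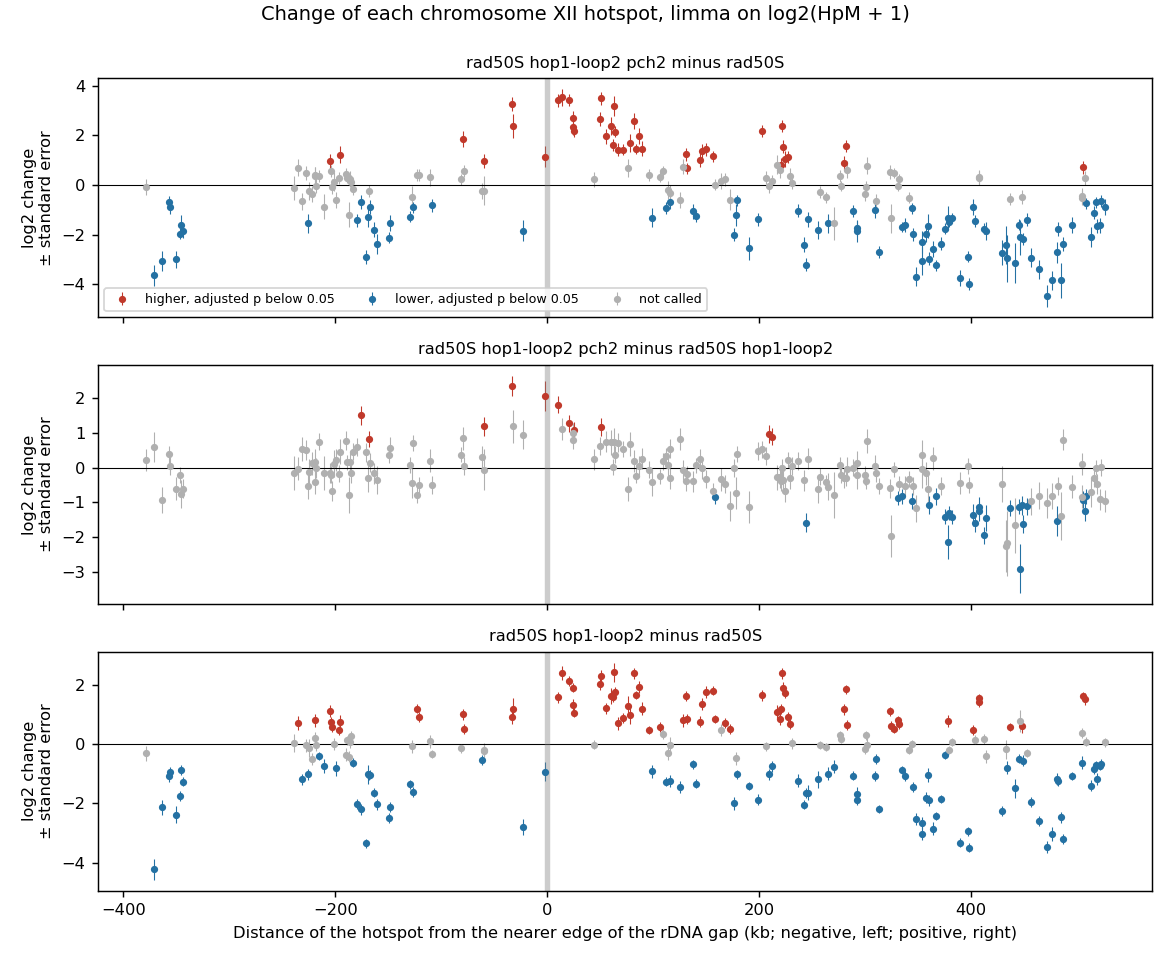
The log2 change (limma on log2(HpM + 1), with the standard error) of each of the 209 hotspots against its distance from the nearer edge of the rDNA gap (kb), for hop1-loop2 pch2 over rad50S (top), hop1-loop2 pch2 over hop1-loop2 (middle) and hop1-loop2 over rad50S (bottom). Red points rose, blue points fell and grey points did not pass. Right of the gap up to 100 kb, 22 of 24 hotspots are red in the bottom panel, and beyond 300 kb on the right the middle panel has 25 blue and 0 red points.

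Over the whole region, the shares of hotspots that changed over rad50S were near those of the genome in both mutants. In hop1-loop2 over rad50S, 91 of 209 fell and 71 rose (43.5% and 34.0%, against 43.2% and 34.2% over all hotspots). In hop1-loop2 pch2 over rad50S, 92 fell and 42 rose (44.0% and 20.1%, against 43.9% and 21.3%), and after centring on the median change of -0.55 the split was 65 fallen and 77 risen. In hop1-loop2 pch2 over hop1-loop2, 27 fell and 11 rose (12.9% and 5.26%, against 11.9% and 2.8%), with 9 and 19 after centring on -0.30. This last comparison rested on few libraries, since without a hop1-loop2 library 0 or 1 hotspot fell and 1 rose, without hop1-loop2 pch2 replicate 1 the counts were 81 and 22 and without replicate 2 they were 35 and 30. Of the 81 tiles tested, 38 fell and 25 rose in hop1-loop2 over rad50S (27 and 32 after centring on -0.30; 49.4% and 31.4% of tiles over the genome). For hop1-loop2 pch2, 20 fell and 27 rose over rad50S (31.9% and 30.4% over the genome), and 31 and 14 after background subtraction. Over hop1-loop2, 9 tiles fell and 28 rose (14% and 22.6% over the genome), with 11 and 9 after centring and 6 and 3 after background subtraction.

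Farther from the gap the direction differed from stretch to stretch. Outside both flanks, 89 of 197 hotspots fell and 62 rose in hop1-loop2 over rad50S, shares near the 43.2% and 34.2% over the genome. On the right, 9 of 25 fell and 11 rose from 100 to 200 kb (36% and 44%). From 200 to 300 kb, 12 of 31 fell and 12 rose (38.7% each). In the left end segment 8 of 9 hotspots fell and none rose, both in hop1-loop2 over rad50S (median log2 change -1.27) and in hop1-loop2 pch2 over rad50S (median -1.87). Over the genome 43.2% and 43.9% of hotspots fell in these comparisons. The segment had 34.4 and 46.5 HpM per kb in hop1-loop2 pch2, 25.4 and 28.8 HpM per kb in hop1-loop2 and 56.2 and 78.0 HpM per kb in rad50S cells. With background subtracted the means were 23.3, 24.5 and 65.7 HpM per kb in that order, so hop1-loop2 pch2 was not above hop1-loop2. Its hotspot at 73823 to 74005 had the largest decrease of the region in hop1-loop2 over rad50S, with 10.2 and 11.7 HpM in hop1-loop2 pch2, 9.72 and 4.88 HpM in hop1-loop2 and 106 and 205 HpM in rad50S cells (log2 change -4.23 ± 0.36, limma adjusted p = 1.15e-05, 13th of the 3569 from the lowest). From 100 to 200 kb left of the gap, 14 of 26 hotspots fell and 4 rose in hop1-loop2 over rad50S (53.8% and 15.4%, against 43.2% and 34.2% over the genome), among them a run of 12 fallen in a row from 261755 to 315460. From 200 to 300 kb on the left, 4 of 16 fell and 5 rose (25% and 31.25%).

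The far right of the chromosome was the reverse of the right flank. More than 300 kb from the gap, a limit that was also set after seeing the values, the level was 52.2 and 59.6 HpM per kb in hop1-loop2 pch2, 71.5 and 71.3 HpM per kb in hop1-loop2 and 84.8 and 84.8 HpM per kb in rad50S cells. Of 68 hotspots there, 51 fell and 1 rose in hop1-loop2 pch2 over rad50S, 40 fell and 13 rose in hop1-loop2 over rad50S, and 25 fell and 0 rose in hop1-loop2 pch2 over hop1-loop2. Over the genome the shares that fell and rose were 43.9% and 21.3%, 43.2% and 34.2%, and 11.9% and 2.8% in that order. For hop1-loop2 pch2 over rad50S, edgeR gave 43 fallen and 10 risen, and centring gave 39 and 8. The median log2 changes were -1.64, -0.68 and -0.83 in that order. A run of 20 fallen in a row in hop1-loop2 pch2 over rad50S spanned 804893 to 864638. Of the 27 decreases of the region in the last comparison, 25 thus lay there, and 0 lay left of the gap. Both libraries lay below both others at 57 of the 68 in hop1-loop2 pch2 over rad50S (54% over the genome), at 53 in hop1-loop2 pch2 over hop1-loop2 (45%) and at 42 in hop1-loop2 over rad50S (48.3%). The call of hop1-loop2 pch2 over hop1-loop2 depended on the libraries. It gave 32 fallen of 68 without replicate 2 of hop1-loop2 pch2, 48 without replicate 1, and 1 or 0 without a hop1-loop2 library, and 8 after centring. edgeR's quasi-likelihood test on the recovered reads gave 25 fallen and 1 risen. A fit on the 4 libraries compared gave 10 fallen, and with each strand position counted once per library 0 of the 68 fell.

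Decreases there differed in kind. Some hotspots fell in both mutants. The one at 858860 to 859086 had 27.9 and 33.1 HpM in hop1-loop2 pch2, 42.5 and 44.2 HpM in hop1-loop2 and 455 and 547 HpM in rad50S cells (log2 change -3.49 ± 0.16 for hop1-loop2 over rad50S, limma adjusted p = 9.74e-07). The one at 933031 to 933225 was similar, with 10.5 and 3.90 HpM in hop1-loop2 pch2, 13.2 and 15.2 HpM in hop1-loop2 and 141 and 196 HpM in rad50S cells. Others were near the rad50S level in hop1-loop2 and lower in hop1-loop2 pch2 cells. The hotspot at 873277 to 873486 had 37.3 and 34.1 HpM in hop1-loop2 pch2, 128 and 155 HpM in hop1-loop2 and 129 and 118 HpM in rad50S cells (log2 change -1.95 ± 0.24 for hop1-loop2 pch2 over hop1-loop2, limma adjusted p = 0.00443). The hotspot at 864480 to 864638 had 25.5 and 30.2 HpM in hop1-loop2 pch2, 86.5 and 86.5 HpM in hop1-loop2 and 76.6 and 78.9 HpM in rad50S cells, with the same pattern. At 910162 to 910444 the values were 36.0 and 34.1 HpM in hop1-loop2 pch2, 98.9 and 123 HpM in hop1-loop2 and 141 and 188 HpM in rad50S cells, so this hotspot stepped down in both comparisons. Both patterns were also seen in tiles. The tile at 850001 to 860000 had 153 and 426 HpM in hop1-loop2 pch2, 162 and 169 HpM in hop1-loop2 and 1327 and 1566 HpM in rad50S cells. The tile at 840001 to 850000 next to it had 522 and 619 HpM in hop1-loop2 pch2, 1135 and 1187 HpM in hop1-loop2 and 1181 and 1200 HpM in rad50S cells (log2 change -1.03 ± 0.14 for hop1-loop2 pch2 over hop1-loop2, limma adjusted p = 2.71e-06).

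The strongest hotspots of the region were partly shared between genotypes. The hotspot at 793446 to 794109 led in both mutants and was second in rad50S cells. It had 2498 and 2067 HpM in hop1-loop2 pch2, 3244 and 3021 HpM in hop1-loop2 and 2267 and 1671 HpM in rad50S cells. The one at 247915 to 248538, left of the gap, was among the 5 strongest in all 3 genotypes. It had 1849 and 1185 HpM in hop1-loop2 pch2, 1566 and 1777 HpM in hop1-loop2 and 1242 and 1172 HpM in rad50S cells. Others changed place. The strongest hotspot of rad50S cells, at 637333 to 637808, had 745 and 671 HpM in hop1-loop2 pch2, 671 and 751 HpM in hop1-loop2 and 2170 and 3724 HpM in rad50S cells, a log2 change of -2.00 ± 0.23 for hop1-loop2 over rad50S (limma adjusted p = 6.71e-05) with a wide gap between the rad50S replicates. The next named hotspot to its left, at 617807 to 618212, was higher in both mutants, with 1337 and 973 HpM in hop1-loop2 pch2, 1763 and 1873 HpM in hop1-loop2 and 568 and 465 HpM in rad50S cells (1.82 ± 0.15 for hop1-loop2 over rad50S, limma adjusted p = 9.24e-06). The hotspot at 706867 to 707404 had 593 and 402 HpM in hop1-loop2 pch2, 316 and 525 HpM in hop1-loop2 and 1083 and 1498 HpM in rad50S cells, and fell in both mutants. At 804893 to 805684 hop1-loop2 pch2 cells alone were lower, with 645 and 465 HpM in hop1-loop2 pch2, 1023 and 1118 HpM in hop1-loop2 and 1018 and 1082 HpM in rad50S cells. The hotspot at 792086 to 792391 had 769 and 672 HpM in hop1-loop2 pch2, 1329 and 1298 HpM in hop1-loop2 and 831 and 666 HpM in rad50S cells, so it was highest in hop1-loop2.

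Among hotspots with a mean of at least 50 HpM, the largest increase of hop1-loop2 over rad50S lay far from the gap, at 682404 to 683035 and 221 kb to the right. It had 243 and 180 HpM in hop1-loop2 pch2, 212 and 211 HpM in hop1-loop2 and 44.9 and 34.4 HpM in rad50S cells. The next, at 511739 to 511895, is 50.7 kb from the gap. It had 310 and 228 HpM in hop1-loop2 pch2, 123 and 111 HpM in hop1-loop2 and 26.3 and 19.7 HpM in rad50S cells. The first thus overlapped between the mutants, and the second stepped down from genotype to genotype. Of the 11 hotspots that rose in hop1-loop2 pch2 over hop1-loop2, 4 lay more than 100 kb from the gap. The one with the largest change, at 268774 to 268902 on the left, had 49.2 and 44.8 HpM in hop1-loop2 pch2, 16.4 and 15.3 HpM in hop1-loop2 and 83.2 and 70.2 HpM in rad50S cells. Its log2 change was 1.51 ± 0.27 in hop1-loop2 pch2 over hop1-loop2 and -2.20 ± 0.19 in hop1-loop2 over rad50S, 2 comparisons that share the hop1-loop2 libraries, and it is named because of these values.

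Breaks in hotspots of the region were concentrated on somewhat fewer of them in the mutants. The 10 strongest of 209 hotspots held 33.9% and 34.8% of the hits in hotspots in hop1-loop2 pch2, 34.4% and 34.5% in hop1-loop2 and 28.3% and 31.8% in rad50S cells, and 50% of the hits were reached with 20 and 19, 19 and 20, and 26 and 24 hotspots in the same order of genotypes. In shape the medians were near those of the other chromosomes, with a width of 188 bp (208 bp on the other chromosomes), 49.7% of hits on the Watson strand (50.3%) and 10.3% of hits at the strongest strand position (10.6%), given as a description with no test. Over the 144 hotspots with at least 200 hits in both hop1-loop2 pch2 and hop1-loop2 cells, the median distance between the centres of hits was 5.88 bp (largest 71.3 bp). Over the 192 with as many in both hop1-loop2 and rad50S cells it was 3.93 bp (largest 57.9 bp). Across the 209 hotspots, log2(HpM + 1) of the 2 replicates correlated with r = 0.94 in hop1-loop2 pch2, 0.99 in hop1-loop2 and 0.98 in rad50S cells, that of hop1-loop2 pch2 with hop1-loop2 libraries with r from 0.88 to 0.92 and that of either mutant with rad50S libraries with r from 0.53 to 0.71. These are values over hotspots, which share libraries and depth and are not independent.

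Hop1 itself was measured on chromosome XII as a whole by SNP-ChIP at 3 h, in which S288c cells mixed in before precipitation serve as a reference, in 1 ChIP and 1 input library each of hop1-loop2 and wild-type cells that are not the CC-seq strains. With the S288c reads of all 16 chromosomes as the reference, Hop1 on chromosome XII in hop1-loop2 was at 54.8% of wild type (95% interval for counting error only 53.81% to 55.84%), the fourth lowest of 16 chromosomes after I, III and VI and below the 59.6% of the whole genome. The interval of chromosome IX, the next in rank, was 55.77% to 58.71% and overlapped it, so the rank is not fixed even for counting error. The value covers the whole chromosome, with the parts left out of the region above. These files give reads per chromosome, so the flanks of the rDNA could not be separated from the rest, and with 1 library per condition used here the values have no replicate check. The titles give the sets of both genotypes as replicate 2, and the other SNP-ChIP sets of the series were not analysed here.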

How the data were processed

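CC-seq hits per strand and position were deposited by the authors in HpM (the unit RPM, scaled to 1000000 hits), after mapping with Bowtie2 through TermMapper to the SK1 genome; removal of duplicates is not given in the sources used here. All values above 0 were whole multiples of 1 hit (100%, tolerance 1e-06 of a hit), so reads were recovered. SNP-ChIP counts per chromosome were deposited as read counts of perfect matches to a joined SK1 and S288c genome. Hotspots and 10-kb tiles (mean of at least 10 HpM) of the whole genome were fitted with limma 3.58.1 in R 4.3.3 on log2(HpM + 1), on the 4 libraries for hop1-loop2 against rad50S and on all 6 otherwise, and edgeR 4.0.16 on the recovered reads was an alternative. p-values were adjusted over all hotspots or tiles of the genome, and the members were then read out. Background was the median of 1-kb bins away from hotspots. Flanks are 50 kb from the edges of the gap, which is the longest run of 1-kb bins under 1 HpM (445001 to 461000). In the fits on all 6 libraries, the spread is shared by the genotypes. Hotspots were named if among the 5 strongest in a genotype, the 3 nearest to each edge of the gap, or the 3 largest increases or decreases among those past the limit with a mean of at least 50 HpM and without overlap of the genotypes, tiles (100 HpM) likewise with the 5 nearest on each side. Tests were checked on simulated data in which all libraries had the same spread and none had a raised background. The raised background of hop1-loop2 pch2 was not simulated, so this check cannot vouch for comparisons with that genotype. Members and lists were chosen with earlier results of these data known. The study's methods speak of independent biological replicates, and its list of CC-seq libraries names those of rad50S and hop1-loop2. The hop1-loop2 pch2 libraries are not in that list, so the spread between them may be technical. The p-values of comparisons with these libraries rest on a spread pooled over the 3 genotypes, not on that of hop1-loop2 pch2 alone.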

Additional observations from a re-analysis of the deposited data

How the results depend on the processing

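Replicates were 2 per genotype, HpM measures shares only, and the depth of hop1-loop2 pch2 was the lowest, so that cold hotspots and tiles of that genotype are the least certain. The log2 changes of the flanks against the rest of the region moved, to different extents, with their width, with hits in hotspots only, with background subtracted and with each strand position counted once per library. For hop1-loop2 pch2 over rad50S the left flank was 2.15 at 20 kb, 2.00 at 100 kb and 1.29 with positions counted once, and the right flank 3.27 at 20 kb, 2.30 at 100 kb, 2.97 in hotspots only, 2.96 with background subtracted and 1.35 with positions counted once. For hop1-loop2 pch2 over hop1-loop2 the left flank was 1.71 at 100 kb, 2.47 in hotspots only, 2.43 with background subtracted and 0.84 with positions counted once, and the right flank 1.76 at 20 kb, 0.74 at 100 kb, 1.40 in hotspots only, 1.42 with background subtracted and 0.53 with positions counted once. For hop1-loop2 over rad50S the left flank was -0.11 at 20 kb, 0.30 at 100 kb, 0.24 in hotspots only and 0.30 with background subtracted, and the right flank 1.56 at 100 kb, 1.57 in hotspots only and 0.82 with positions counted once. Leaving out 1 library gave 2.54 to 2.80 (left) and 2.63 to 2.80 (right) for hop1-loop2 pch2 over rad50S, 2.17 to 2.31 and 1.17 to 1.34 for hop1-loop2 pch2 over hop1-loop2, and 0.30 to 0.56 and 1.39 to 1.54 for hop1-loop2 over rad50S.

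In hop1-loop2 pch2 over rad50S, 84 hotspots rose with edgeR, 77 after centring and 25 with positions counted once, and with background subtracted 31 tiles fell and 14 rose. In hop1-loop2 pch2 over hop1-loop2, 9 hotspots fell after centring, 0 with positions counted once and 11 with a fit on the 4 libraries, while 40 rose with edgeR, 19 after centring, 0 with positions counted once and 7 at a calling threshold of 0.4 HpM per bp. Of the tiles in that comparison, 9 rose after centring, 4 with positions counted once, 18 with a fit on the 4 libraries and 3 with background subtracted. In hop1-loop2 over rad50S, 25 tiles fell in a fit on all 6 libraries. Leaving out 1 library gave 67 to 109 fallen and 33 to 66 risen hotspots for hop1-loop2 pch2 over rad50S, 0 to 81 and 1 to 30 for hop1-loop2 pch2 over hop1-loop2, and 79 to 98 and 59 to 75 for hop1-loop2 over rad50S. For tiles the same ranges were 14 to 29 and 16 to 40, 4 to 11 and 6 to 51, and 29 to 38 and 21 to 27. Where leaving out a library left 1 in a genotype, it was assumed to vary like the others. The median change of all hotspots was -0.55, -0.30 and -0.16 and that of all tiles -0.00344, 0.26 and -0.30 in the same order of comparisons.

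The direction of 6 values of single hotspots and tiles reversed. The hotspot at 792086 to 792391 was at 0.41 in hop1-loop2 pch2 over rad50S with edgeR (adjusted p = 0.0329) and at 0.18 over hop1-loop2 with positions counted once. With background subtracted, the tile at 70001 to 80000 was at -0.68 in hop1-loop2 pch2 over hop1-loop2 and that at 500001 to 510000 at -0.081 in hop1-loop2 pch2 over rad50S. In hop1-loop2 over rad50S, the tile at 840001 to 850000 was at 0.27 after centring and that at 420001 to 430000 at 0.21 with positions counted once. The cause was not tested in any of these cases. Of the other values of single hotspots and tiles, 1493 kept their direction and their side of the threshold, 48 gained a call and 135 lost it. Hop1 on chromosome XII was at 53.2% of wild type with the S288c reads of chromosome XII alone as the reference.

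The replicates of different genotypes share a number only. Deviations of same-numbered libraries from their genotype means correlated with r = 0.16, 0.26 and 0.40 over the 209 hotspots. With the replicate block the hotspots that fell and rose were 96 and 47 for hop1-loop2 pch2 over rad50S, 34 and 16 for hop1-loop2 pch2 over hop1-loop2 and 96 and 75 for hop1-loop2 over rad50S. For tiles they were 20 and 28, 9 and 29, and 38 and 23. Near the gap, the block gave 5 of 8 risen within 50 kb on the right in hop1-loop2 pch2 over hop1-loop2 (3 without it), 6 of 24 within 100 kb (4 without it) and 4 of 10 within 100 kb on the left (3 without it).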

Other observations

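Hotspots that appeared only when the hop1-loop2 pch2 libraries took part in the calling lay mostly beside the rDNA gap. Their values chose them, so they are given with no test. Of 11, 4 were within 50 kb and 9 within 100 kb of the gap, where 24 (right) and 10 (left) of the 209 members lie. The nearest, at 464558 to 464613 and 3.56 kb to the right, had 45.9 and 40.9 HpM in hop1-loop2 pch2, 7.65 and 9.27 HpM in hop1-loop2 and 17.6 and 11.3 HpM in rad50S cells. That makes it the hotspot closest to the right edge, and hop1-loop2 was lowest there, as at the hotspot closest to the left edge. The one at 494561 to 494650 lies in the middle of a stretch without members and had 57.3 and 43.8 HpM in hop1-loop2 pch2, 16.1 and 14.8 HpM in hop1-loop2 and 12.03 and 10.16 HpM in rad50S cells. The only one on the left within 100 kb, at 365761 to 365802, had 29.9 and 22.4 HpM in hop1-loop2 pch2, 10.7 and 10.6 HpM in hop1-loop2 and 5.04 and 2.51 HpM in rad50S cells.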
